A study of Mus musculus with 16 samples.

Results

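The regions described are stretches of open chromatin that were called as ATAC-seq peaks in both LC3-GFP positive libraries of cultured CD8+ T cells and in neither LC3-GFP negative library. They were chosen by joining the authors' peaks of the 4 in vitro libraries wherever peaks shared at least 1 bp, which gave 73648 merged regions. Of these, 5911 regions (8.03%) were open only in LC3-GFP positive cells, against 2448 regions (3.32%) open only in LC3-GFP negative cells and 39655 regions (53.8%) with a peak in all 4 libraries. The in vitro peak calls themselves made the choice, so the numbers of regions and their ranks in those libraries are descriptions. The tumour ATAC-seq libraries and the RNA libraries took no part in it.

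All cells came from Pmel mice carrying an LC3-GFP-RFP reporter. T cells of the Pmel strain bear a receptor for a melanocyte antigen, and LC3 is a protein attached to the membrane of autophagosomes. Over 3 days, purified T cells were activated through CD3 and CD28, each by an antibody at 2 µg/ml, and IL2 was present at 100 IU/ml. They were then exposed to carbon monoxide (CO) for 24 h and sorted by flow cytometry. Both sorted groups had received CO, and cells without CO were not analysed here. In vitro, positive and negative cells had 2 ATAC-seq libraries each and, apart from these, 2 RNA libraries each. For the tumour groups, C57BL/6 mice bearing B16-F10 melanoma for 12 days received positive or negative cells, and Vβ13+CD8+ cells were sorted from each tumour 15 days later. Each tumour group had 4 mice and 1 library per mouse. The labels do not say whether the in vitro and RNA replicates came from separate animals, so their spread may be technical.

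In ATAC-seq, the Tn5 transposase cuts DNA that nucleosomes do not cover, and pileups of cuts are called as peaks. Peaks at gene starts mark promoters and are often shared by many cell types, whereas peaks far from gene starts include enhancers, which differ more between cell types and states. A bulk library sums all cells in the tube, so fewer cells of a type and less signal per cell cannot be told apart.

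The in vitro lists held 63761 and 53869 peaks in the LC3-GFP positive libraries, against 56476 and 49634 in the negative ones. The tumour lists held 27406, 37154, 36539 and 37477 peaks in the positive libraries, against 41435, 55171, 35758 and 33704 in the negative ones. Read depth is unknown from peak lists, so a missing peak does not show closed chromatin. Tumour negative replicate 2, with 55171 peaks, stood apart. Over regions merged from the peaks of all 12 ATAC-seq libraries, it shared regions with each of the other 7 tumour libraries at a Jaccard index (shared over total regions of a pair) of 0.380 to 0.451, whereas those 7 shared regions with one another at 0.610 to 0.830. With the in vitro positive libraries, tumour negative replicate 2 had indices of 0.466 and 0.474. With the in vitro negative libraries it had 0.451 and 0.454. Each of the other 7 tumour libraries shared less with both in vitro positive libraries than with both negative ones. Why tumour negative replicate 2 differed was not tested. Tumour results below are given per library or, for the main ones, with and without tumour negative replicate 2. RNA totals were 17557628 and 15605902 counts in positive and 15850657 and 14567540 counts in negative libraries, and edgeR's quasi-likelihood test called 3000 of 12022 genes, 25%, at an adjusted p below 0.05.

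A small group of these regions covered promoters, and 6 promoters that show the main patterns are printed here. Cd79a encodes a signalling chain of the B cell receptor, Fcrl5 an Fc receptor-like protein of B cells and Tnfrsf13b the receptor TACI. Fcgr1 encodes the high-affinity receptor for immunoglobulin G, and Mpeg1 encodes perforin-2, a pore-forming protein of macrophages. Anxa1 encodes annexin A1, an anti-inflammatory lipid-binding protein. Each sequence is the 250 bases before the gene start from RefSeq on GRCm38.p6, the assembly that mm10 names, written 5′ to 3′ along the gene. Capitals mark AGGAAG or its reverse complement CTTCCT, the core bound by the ETS family, to which Ets1, Fli1 and PU.1 belong.
Cd79a (chr7:24897247-24897496, plus strand): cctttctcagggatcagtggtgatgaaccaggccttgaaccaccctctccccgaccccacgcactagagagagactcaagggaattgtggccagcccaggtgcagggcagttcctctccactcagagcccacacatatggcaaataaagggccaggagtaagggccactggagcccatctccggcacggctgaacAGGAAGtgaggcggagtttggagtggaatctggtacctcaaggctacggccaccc
Fcrl5 (chr3:87435532-87435781, plus strand): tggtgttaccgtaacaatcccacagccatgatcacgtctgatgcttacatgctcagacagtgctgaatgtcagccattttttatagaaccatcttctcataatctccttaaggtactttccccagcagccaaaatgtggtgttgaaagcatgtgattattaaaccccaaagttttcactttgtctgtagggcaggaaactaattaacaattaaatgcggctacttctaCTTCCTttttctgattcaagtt
Tnfrsf13b (chr11:61126505-61126754, plus strand): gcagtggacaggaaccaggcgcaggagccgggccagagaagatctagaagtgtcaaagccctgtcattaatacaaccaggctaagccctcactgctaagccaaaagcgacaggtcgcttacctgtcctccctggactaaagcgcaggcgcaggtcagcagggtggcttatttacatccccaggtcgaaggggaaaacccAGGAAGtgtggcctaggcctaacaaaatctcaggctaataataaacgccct
Fcgr1 (chr3:96293970-96294219, minus strand): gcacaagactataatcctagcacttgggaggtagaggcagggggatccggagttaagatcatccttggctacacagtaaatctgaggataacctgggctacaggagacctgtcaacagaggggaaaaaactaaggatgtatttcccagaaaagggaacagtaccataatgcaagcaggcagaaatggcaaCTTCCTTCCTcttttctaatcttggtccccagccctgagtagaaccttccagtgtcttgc
Mpeg1 (chr19:12460520-12460769, plus strand): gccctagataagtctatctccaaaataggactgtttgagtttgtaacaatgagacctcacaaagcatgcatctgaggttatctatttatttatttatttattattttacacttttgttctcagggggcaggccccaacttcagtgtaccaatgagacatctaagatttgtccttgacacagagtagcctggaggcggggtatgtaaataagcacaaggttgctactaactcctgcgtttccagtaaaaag
Anxa1 (chr19:20390672-20390921, minus strand): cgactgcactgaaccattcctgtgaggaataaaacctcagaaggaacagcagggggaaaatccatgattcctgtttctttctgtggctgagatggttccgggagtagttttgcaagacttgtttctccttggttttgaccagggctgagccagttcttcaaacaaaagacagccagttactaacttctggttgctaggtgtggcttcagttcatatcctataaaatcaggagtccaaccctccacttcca
Cd79a, Fcrl5 and Tnfrsf13b each held 1 such core in these bases, Fcgr1 held 2 that overlap, and Mpeg1 and Anxa1 held none. A match is only a match of letters and does not show that a factor was bound.

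The regions open only in positive cells were short and ranked low in the lists they came from. Their median width was 743 bp (middle 50% from 602 to 930 bp), against 669.5 bp for regions open only in negative cells and 1285 bp for regions in all 4 libraries. With the peaks of each library ranked by the authors' −log10 q, the median member stood at 67.4% of the list of positive replicate 1 and at 78.0% of the list of positive replicate 2, where 0% is the strongest peak. Regions in all 4 libraries stood at 32.1% and 37.7% in the same lists. The negative-only regions stood at 74.9% and 83.0% of the negative lists, so both one-sided sets came from the weaker parts of their lists. Only 442 members (7.48%) lay in the stronger 50% of both lists, and 10 lay in the top 25% of both.

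**Figure D1:**
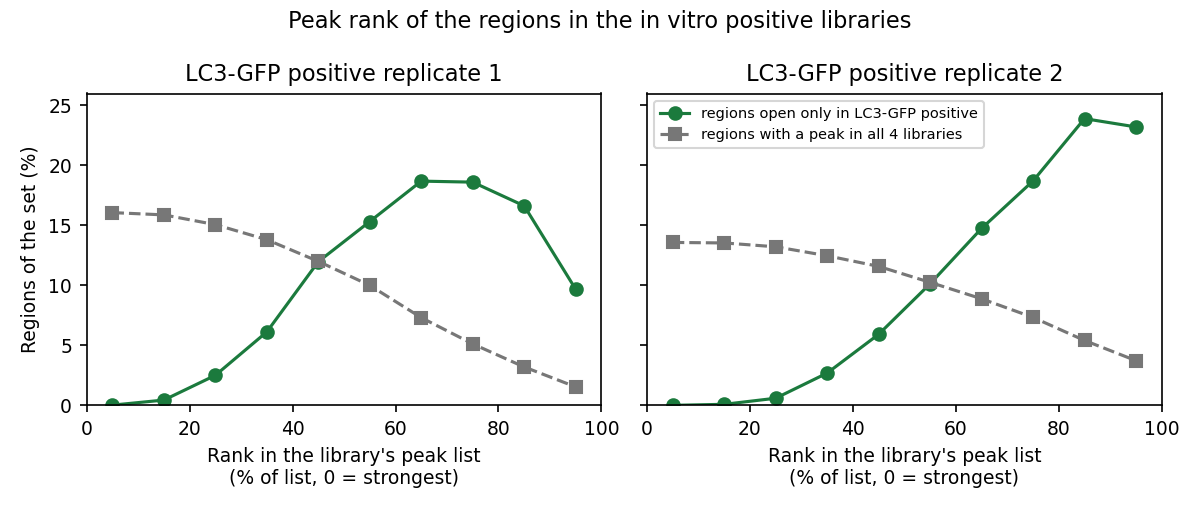
Distribution of peak ranks in the 2 in vitro LC3-GFP positive libraries, as the percent of each set of regions (y axis) by position in the library's list (x axis, 0% is strongest), for regions open only in LC3-GFP positive (circles) and regions with a peak in all 4 libraries (squares). The positive-only regions have medians of 67.4% and 78.0% and few in the strongest 20%, while the shared regions have medians of 32.1% and 37.7%.

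The 2 positive libraries ordered the members alike but loosely, with a Spearman correlation of 0.607 over the 5911 regions. These regions share 1 library each way and are not independent replicates. The threshold of the rule was a peak call, so its edge is shown by the weakest calls. The member ranked last lay in a part of the gene body of Kdm2a and stood at 99.9% and 97.3% of the 2 lists, and those at Fnbp1 and Sema4d stood at 99.9% and 97.5% and at 99.9% and 95.1%. Just outside the rule were 4694 regions with a peak in both positive libraries and in 1 negative library.

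The strongest members were distal. The region with the best worse rank, counted in peaks from the top of each list, was chr7:96406564-96407506, inside Tenm4, which encodes a teneurin cell adhesion protein. It stood at 16.67% and 16.97% of the positive lists and lay 194893 bp from the nearest gene start. Of the 12 best-ranked members, 7 had no peak in any tumour library. These included chr11:117150249-117151132 in Sec14l1, chr2:127718604-127719562 in Mall and chr5:101793378-101794491 in Cds1. Another 4, near Arid5b, Lrrc8d, Ppp1r1c and Clec5a, had a tumour peak in negative replicate 2 alone. The remaining one, 20387 bp from Pmaip1, which encodes the pro-apoptotic protein NOXA, had a peak in 1 positive and in all 4 negative tumour libraries.

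Members were mostly far from gene starts, and in this they were like the regions open only in negative cells. A gene start lay inside 105 members (1.78%), inside 1.47% of negative-only regions and inside 28.4% of regions in all 4 libraries. Distances over 10 kb were found for 77.8% of members, 77.0% of negative-only regions and 54.5% of regions in all 4. The median distance to a gene start was 28353 bp for members, against 29707.5 bp for negative-only regions and 12734.5 bp for regions in all 4 libraries. Gene bodies held 58.7% of members, 59.0% of negative-only regions and 69.1% of regions in all 4. Exons, introns and untranslated regions were not annotated here. By chromosome, members made up 6.76% of the regions on chromosome 15 and 9.10% of those on chromosome 1, with the other autosomes and X between.

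**Figure D2:**
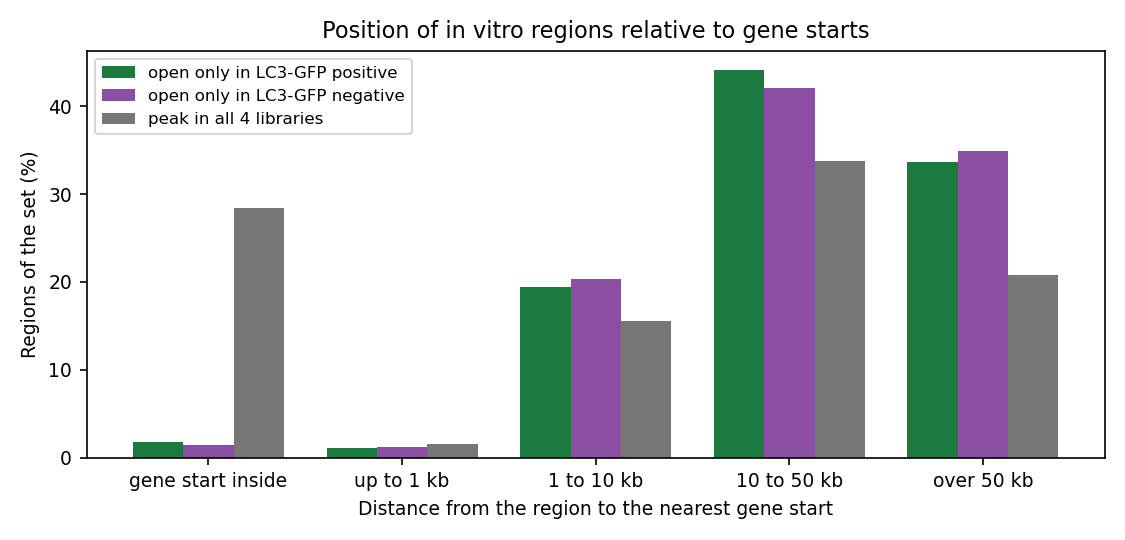
Share of each set of in vitro regions (y axis, percent) by distance to the nearest gene start (x axis), for regions open only in LC3-GFP positive (left bars), open only in LC3-GFP negative (middle bars) and in all 4 libraries (right bars). The first 2 sets have 1.78% and 1.47% with a gene start inside, while the shared set has 28.4%.

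The promoter windows of 109 genes, 71 of them protein-coding, lay wholly inside 106 members. The genes fell by where else the promoter was open. At 44 of the 106 regions no tumour library had a peak. Among them were the promoters of Cd79a (chr7:24896293-24898109), Fcrl5 (chr3:87435519-87437146), Tnfrsf13b (chr11:61126084-61127137) and Rasgrp3, a Ras activator of B cells. The same 44 also held promoters of genes not known as B cell genes, such as Steap3, Itga10, Lmcd1, Ifna1 and Fgr, and of several lncRNA genes. The promoter of Fcer2a, which encodes the B cell receptor for immunoglobulin E, had a peak in tumour positive replicates 2 and 4 and in no negative library.

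At 51 of the 106 promoter regions tumour negative replicate 2 had a peak, and at 35 it was the only tumour library with one. The 35 were 33.0% of the 106, against 25.0% of all members with a peak in that library alone among tumour libraries. They included the promoters of Nectin4, Pvalb and Cdh15, 9 promoters of lncRNA genes, and several of genes known from macrophages, of which only Mpeg1 was on the myeloid and dendritic list. Examples are the Fc receptor genes Fcgr1 (chr3:96293622-96294301) and Fcgr4 (chr1:171018513-171019375), Mpeg1 (chr19:12459986-12461329), the membrane protein gene Ms4a7 (chr19:11335821-11336493) and Lilra6. Promoters of Syk and Btk, tyrosine kinases that act below B cell and Fc receptors, were also open there alone among tumour libraries. Without that library, 27 of the 106 had a peak in any tumour library. These promoter genes were named after their values were seen, with roles as background.

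A further few promoters were open in tumours whatever the sorted group. The promoter of Anxa1 (chr19:20390229-20390927) and that of Clec12a, an inhibitory lectin receptor, had a peak in all 8 tumour libraries. Plac8 had one in 3 positive libraries (replicates 2, 3 and 4) and in 3 negative libraries (replicates 1, 3 and 4). Gzmm, which encodes granzyme M, had one in tumour negative replicate 1 alone.

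**Figure D3:**
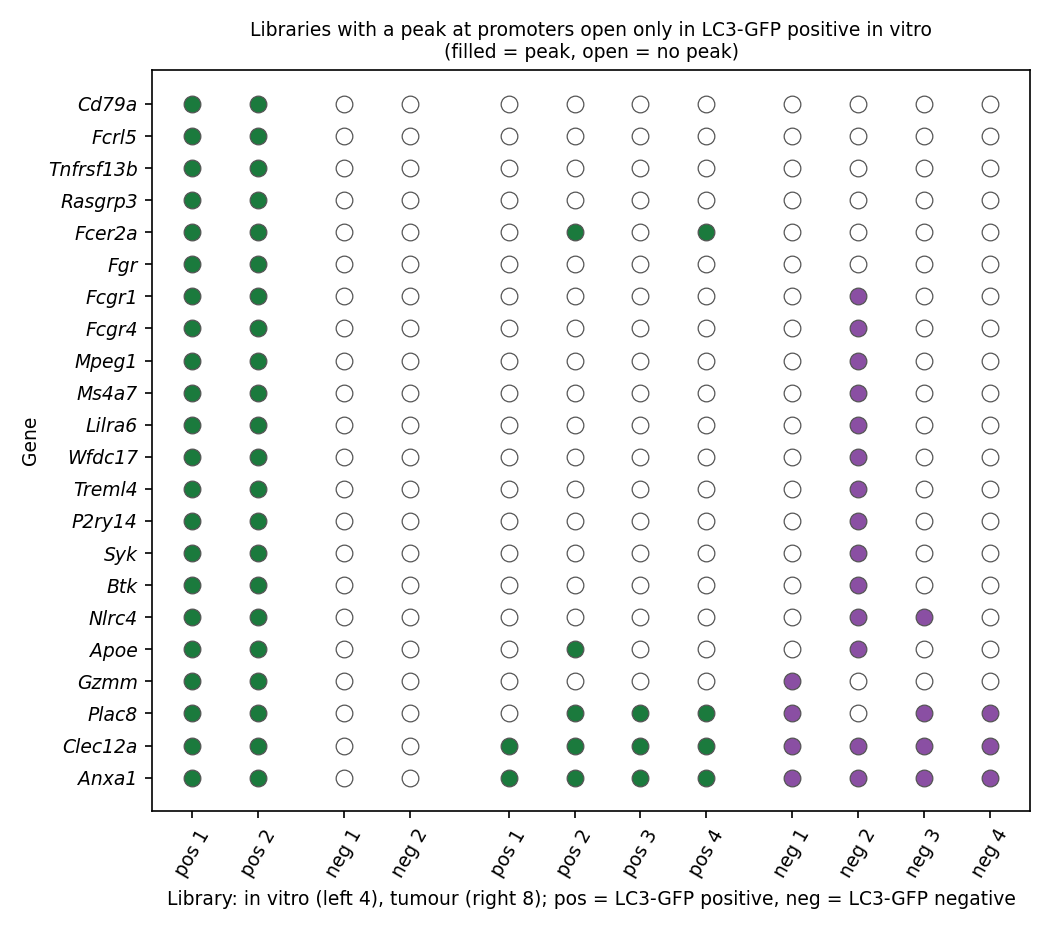
Peaks at 22 promoters that lie in regions open only in LC3-GFP positive in vitro. Each row is a gene and each column a library (filled, peak; open, no peak), so the left 4 columns show the rule and the right 8 the tumour libraries. Cd79a, Fcrl5, Tnfrsf13b and Rasgrp3 have no tumour peak, while Fcer2a has one in positive replicates 2 and 4. Promoters such as Fcgr1 and Mpeg1 have one in negative replicate 2 alone, and Anxa1 and Clec12a have one in all 8.

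The letters of the 109 promoter windows, the 250 bases before the start, differed from those of promoters open in all 4 in vitro libraries. AGGAAG or CTTCCT on either strand occurred in 54 of the 109 windows (49.5%), in 43.9% of 41 windows in negative-only regions, in 27.6% of windows in regions of all 4 libraries and in 29.2% of all 27025 windows. The GC box GGGCGG, or CCGCCC, bound by SP and KLF factors, occurred in 16.5% of the 109 windows, in 12.2% of negative-only, in 61.6% of all-library and in 32.9% of all windows. The AP-1 site TGANTCA, which is its own reverse complement, occurred in 13.8%, against 14.6%, 4.41% and 6.87% in the same order. The median GC content was 51.6% for the 109 windows, 52% for negative-only, 60.8% for all-library and 52% for all windows. For these 3 motifs and GC content the windows of positive-only and negative-only regions lay closer to each other than to promoters open in all libraries. Of the other 22 motifs searched, 3 were found in none of the 41 negative-only windows and in at least 7 of the 109. The T-box motif TCACACC, or GGTGTGA, occurred in 8.26% of the 109 and in 3.31% of all windows. The NFAT motif TGGAAAA, or TTTTCCA, occurred in 9.17% and 5.99%, and the IRF pair in 6.42% and 3.04%. A stricter ETS motif among the 22, CCGGAAG or CTTCCGG, was in contrast rarer than in all-library windows. It occurred in 3.67% of the 109 windows, in 2.44% of negative-only, in 13.8% of all-library and in 7.05% of all windows.

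In the tumours, few of these regions were open. Peaks covered 2.83%, 8.21%, 8.09% and 8.56% of the 5911 members in positive replicates 1 to 4. In negative replicates 1 to 4 they covered 9.61%, 33.6%, 7.44% and 5.99%. The groups overlapped, and negative replicate 2 lay far above the rest. The mean was 6.92% ± 2.74 in positive and 14.2% ± 13.0 in negative libraries (SD, n = 4 each), a difference of −7.23 percentage points. Without negative replicate 2 the negative mean was 7.68% ± 1.82 (SD, n = 3) and the difference −0.76 percentage points, smaller than either SD. The share is a score over the members and was not tested.

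Regions of the other in vitro sets were found more often in tumours. The 2448 negative-only regions had tumour peaks at 15.3% to 27.7% in positive and at 16.1% to 27.1% in negative libraries. Regions in all 4 in vitro libraries had them at 58.3% to 70.6% in positive and at 69.1% to 75.4% in negative libraries. In each of the 7 tumour libraries other than negative replicate 2, the share of members with a peak was lower than that of negative-only regions. In negative replicate 2 it was higher, at 33.6% against 16.1%.

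**Figure D4:**
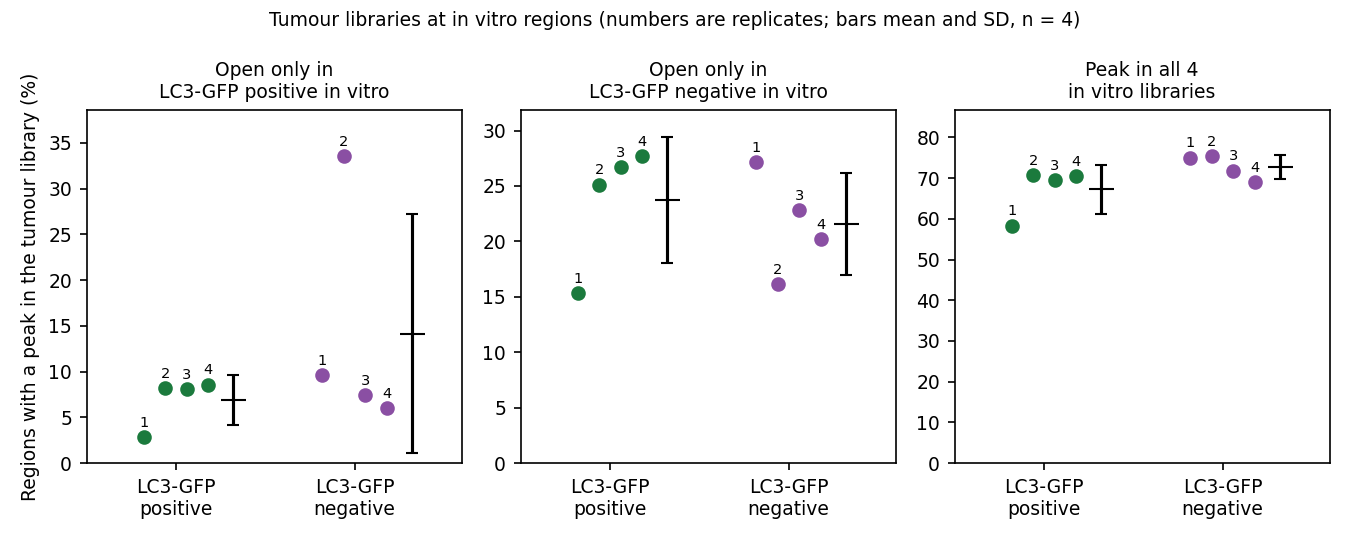
Share of in vitro regions with a peak in each tumour library (y axes, percent), by LC3-GFP group, for regions open only in positive (left), only in negative (middle) and in all 4 in vitro libraries (right). Points are mice numbered by replicate and bars are the mean and SD (n = 4 each). Negative replicate 2 stands at 33.6% in the left panel, against 5.99% to 9.61% in the other negative libraries.

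Over single members, 3421 of 5911 (57.9%) had no peak in any tumour library, 1479 (25.0%) had one in negative replicate 2 alone and 1011 (17.1%) had one in at least 1 of the other 7 libraries. These 3 groups of members were alike in size and rank. Their median widths were 738, 770 and 714 bp, and their median ranks in positive replicate 1 were 67.5%, 65.1% and 70.4% of the list. Members with a peak in the other 7 libraries lay nearer to gene starts, at a median of 21988 bp, against 26581 bp for those with a peak in negative replicate 2 alone and 31298 bp for those with none. A set of 90 members had a peak in each of the 7 libraries, and 53 had one in all 8.

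Members that also separated the tumour groups were few. A peak in all 4 positive and no negative tumour library was found at 6 members, and 315 of all 73648 merged regions (0.428%) had this pattern. Without negative replicate 2 there were 8. The 6 lay 8588 bp from a start of Bach2, which encodes a transcriptional repressor that preserves memory T cells (chr4:32229108-32229825), in Arpc3, Rbpms, Ppp3ca and Tnrc6c, and 2581 bp from a start of Ercc6l2. Ppp3ca encodes the catalytic subunit of calcineurin, which activates NFAT below the T cell receptor, and its member was chr3:136769056-136769954. The opposite pattern, all 4 negative and no positive tumour library, was found at 16 members (28 without negative replicate 2) and at 695 of all regions (0.944%). The 8 best-ranked of these lay in or near Ccdc138, Pcyt1a, Dr1, Fubp3, Ezr, Nap1l3, Hnrnpk and Slc5a10. Ezr encodes ezrin, which links the membrane to actin, and its member was chr17:6746184-6747254. The 6 and the 16 were 0.102% and 0.271% of the members, below the shares of all regions with the same patterns. For the 8 and the 28 no share of all regions was computed.

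Members were assigned to a gene when they overlapped its body or the 2 kb before it, which placed 3552 members in 2584 genes and left 2359 with no gene. Most genes (1961) had 1 member and 229 had at least 3. Long genes had the most, and their share of members among all their regions varied. Hdac9, a class II histone deacetylase gene of 869.516 kb, had 12 members of 40 regions, and Tenm4 had 12 of 25. Arhgap24 had 10 of 19, and Prkce, the gene of protein kinase C epsilon, had 10 of 43. Lpp had 9 of 62, Bank1 8 of 24, Itpr2 8 of 36 and Baz2b 8 of 32. These genes were chosen by their number of members, and each of the 8 shares was above the 8.03% of all regions. Foxp1 had 7 of 89, close to that background.

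Of the 26 gene lists, the B cell list had the highest share of positive-only regions. Of its 12 genes 7 had a member, with 24 positive-only and 0 negative-only regions among 102 regions. The 24 were 23.5% of these regions, against 8.03% of all regions. Bank1, which encodes a scaffold of B cell receptor signalling, held 8, and Ebf1 and Pax5, which encode transcription factors that set B cell identity, held 7 and 3. Blk, a B cell Src-family kinase gene, held 3, and Cd79a, Ms4a1 (the gene of CD20) and Fcer2a held 1 each. In the tumour libraries these 24 regions had peaks in 0, 1, 0 and 1 case in positive replicates 1 to 4 and in 0, 1, 0 and 0 cases in negative replicates 1 to 4. By the worse of its 2 positions, counted in peaks, the strongest was chr14:63388767-63389631 in Blk, at 23.3% and 41.3% of the positive lists. Counted in percent of the list it was chr3:136292014-136292941 in Bank1, at 35.6% and 39.0%.

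RNA of most tested B cell genes was low and higher in positive cells. Of the 7 genes with a member 3 had a result in the main edgeR test, and Ebf1, Pax5, Blk and Fcer2a had none. Fcer2a had 7 and 3 counts in positive, against 5 and 9 in negative libraries, and Ebf1 had 8 and 11, against 10 and 2. Cd79a had 37 and 32 counts in positive, against 2 and 2 counts in negative libraries. That is a ratio of 15.1 (exact 95% interval 5.66 to 57.2, counting error only), with an edgeR adjusted p of 1.03e-04. Ms4a1 had 25 and 12 counts in positive, against 0 and 1 in negative libraries, a ratio of 32.5 (5.48 to 1318) and an edgeR adjusted p of 0.00154. Bank1 had 20 and 12 counts in positive, against 0 and 4 in negative libraries, a ratio of 7.03 (2.49 to 27.3) and an edgeR adjusted p of 0.0192. The Bank1 call was lost with DESeq2 (adjusted p = 0.102), without positive replicate 1 (edgeR adjusted p = 0.148) and without negative replicate 1 (edgeR adjusted p = 0.150). For these 3 genes every positive library lay above every negative library. Over the list, 6 of 7 tested genes rose and 0 fell (7 and 0 at an unadjusted edgeR p below 0.05, and 5 and 0 of 9 with DESeq2), against 11.3% and 13.6% of all genes tested. Without positive replicate 1, 3 of 8 were called higher and 0 lower.

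Markers of other cells moved both ways in RNA, and their part in the members was not tested. The 7 B cell markers had peaks within 1 kb of their starts in 7 and 7 cases in the positive in vitro libraries, against 6 and 6 cases in the negative ones, Cd79a being the one absent. In the tumour libraries they had them in 1 to 4 cases. Their summed RNA was 13.3 and 12.7 CPM (counts scaled to library size, on TMM-adjusted totals) in positive, against 4.85 and 5.59 CPM in negative libraries, and Pax5 was not listed in the RNA table. Of the CD4 T cell markers, Cd4 had 79 and 54 counts in positive, against 15 and 10 counts in negative libraries, and rose (edgeR adjusted p = 1.44e-04), while Zbtb7b fell (edgeR adjusted p = 6.65e-05) and the summed list was at 59.0 and 53.9 CPM in positive, against 78.4 and 70.6 CPM in negative libraries. No library but in vitro negative replicate 1 had a peak within 1 kb of the Cd4 start. Summed CD8 T cell markers were at 1840 and 1866 CPM in positive, against 2062 and 2129 CPM in negative libraries. Cd8a, Cd8b1, Cd3d, Cd3e, Cd3g and Cd2 were called lower (edgeR adjusted p of 0.00426 to 0.0488), with log2 fold changes of −0.20 to −0.14, and Cd5 was not called. With DESeq2 the calls of Cd3g and Cd2 were lost (adjusted p = 0.110 and 0.147). With library size alone only those of Cd8b1 and Cd3e remained. The CD8 markers had peaks at 7 of 7 placed starts in all libraries except the in vitro negative ones, where they had them at 6, without Cd2. Markers of the labelled CD8 T cell type were thus present in each library.

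Fewer myeloid and dendritic genes held a member. Of the 11 genes on that list with a region 3 had a member, with 5 positive-only and 2 negative-only regions among 33, that is 15.2% and 6.06%. Flt3, the receptor gene of dendritic progenitors, held 3, and Adgre1, which encodes the macrophage marker F4/80, and Mpeg1 held 1 each. Of the 5 regions, 4 had a peak in tumour negative replicate 2 and 0 had one in the other 7 tumour libraries. Mpeg1 had 30 and 17 counts in positive, against 0 and 1 in negative libraries, a ratio of 41.3 (exact 95% interval 7.05 to 1664), with an edgeR adjusted p of 4.17e-04. Summed myeloid and dendritic markers were at 69.5 and 74.5 CPM in positive, against 75.4 and 79.7 CPM in negative libraries, but H2-Ab1, at 46.7 and 52.2 CPM in positive, against 67.0 and 71.2 CPM in negative libraries, made up most of that sum. Of the 6 markers listed in RNA, Mpeg1, Cd74 and H2-Aa rose. Cd74, whose product is the MHC class II chaperone, was at 16.3 and 14.6 CPM in positive, against 0.841 and 1.33 CPM in negative libraries (edgeR adjusted p = 9.04e-10). H2-Aa, an MHC class II chain, was at 2.56 and 3.58 CPM in positive, against 0.259 and 0.140 CPM in negative libraries (edgeR adjusted p = 2.56e-05). B cells and dendritic cells both express these MHC class II genes. H2-Ab1 and Cd68 fell (edgeR adjusted p = 8.14e-05 and 1.94e-04), and Itgax did not pass the test. In tumour negative replicate 2 all 6 placed marker starts had a peak, against 3 to 5 in the other tumour libraries, and their part in its high share was not tested.

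Next to the B cell and myeloid genes, few promoter genes could be tested in RNA. Of 23 tested, 3 rose, namely Cd79a, Mpeg1 and Syk, and 6 fell, against 11.3% and 13.6% of all genes. This balance was not stable, with 3 higher and 3 lower of 24 by DESeq2, and 4 and 3 of 25 when positive replicate 1 was left out. Leaving out positive replicate 2 or negative replicate 1 gave 4 and 4, and leaving out negative replicate 2 gave 6 and 4 of 26. Syk was at 2.95 and 3.01 CPM in positive, against 0.712 and 0.699 CPM in negative libraries, a log2 fold change of 2.07 ± 0.38 (SE, n = 2 each, edgeR adjusted p = 5.80e-04). P2ry14, a receptor gene for UDP-sugars, fell to 33.7 and 32.8 CPM in positive, against 54.6 and 55.5 CPM in negative libraries (edgeR adjusted p = 1.20e-06). Plac8 was at 199 and 190 CPM in positive, against 286 and 287 CPM in negative libraries, and also fell (edgeR adjusted p = 9.90e-08). Fgr, a Src-family kinase gene of myeloid and natural killer cells, fell to 2.84 and 3.64 CPM in positive, against 7.51 and 5.31 CPM in negative libraries (edgeR adjusted p = 0.00478, and 0.0530 without negative replicate 1). Anxa1, Tnfrsf13b and Gzmm did not pass the test. Anxa1 was at 18.5 and 20.6 CPM in positive, against 23.6 and 22.5 CPM in negative libraries. Tnfrsf13b was at 2.23 and 2.95 CPM in positive, against 2.85 and 1.75 CPM in negative libraries, and Gzmm at 0.947 and 0.251 CPM, against 0.971 and 1.47 CPM.

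Over all genes, an RNA change was about as common with a member as without. Of 1864 tested genes with a member, 228 (12.2%) were higher and 281 (15.1%) lower in positive cells, against 11.3% and 13.6% of all 12022 genes. Their median log2 fold change was 0.004, against 0.002 over all genes. Genes with at least 3 members were called higher in 16 and lower in 34 of 181 cases, and those with a member within 1 kb of a start in 7 and 13 of 64 cases. Genes with a negative-only region were called higher in 104 (10.8%) and lower in 190 (19.7%) of 964 cases. The split depended on scaling. Of the calls at genes with a member 44.8% were higher, and 63.5% were when library size replaced TMM, while for all genes these shares were 45.4% and 65.1%.

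Among called genes with a member and a mean level of at least 5 CPM, the largest rise was that of Tox, which encodes a transcription factor of exhausted T cells. It was at 12.7 and 11.5 CPM in positive, against 5.57 and 4.48 CPM in negative libraries, a log2 fold change of 1.27 ± 0.17 (SE, n = 2 each, edgeR adjusted p = 2.96e-05). Its single member, chr4:6817196-6817787, had tumour peaks in all 4 positive libraries and in negative replicate 1. Eng, the gene of the TGF-beta co-receptor endoglin, held 2 members and was at 49.3 and 42.9 CPM in positive, against 24.7 and 25.7 CPM in negative libraries (edgeR adjusted p = 1.12e-06). Tnfsf8, the gene of CD30 ligand, was at 31.6 and 31.8 CPM in positive, against 14.4 and 21.3 CPM in negative libraries (edgeR adjusted p = 1.14e-04). The other rises among the first 10 were Wdfy4, Sulf2, Cpd, Tspan6, Ifih1, Sdc1 and Mrps6, with log2 fold changes of 0.68 to 0.94. Wdfy4, a gene of cross-presentation in dendritic cells with 3 members, was at 5.46 and 9.17 CPM in positive, against 5.05 and 2.45 CPM in negative libraries. Its call was lost with DESeq2 (adjusted p = 0.359), without positive replicate 2 (edgeR adjusted p = 0.252) and without negative replicate 2 (edgeR adjusted p = 0.0776). The calls of Tspan6 and of Sdc1, a plasma cell marker gene, were also lost with DESeq2 (adjusted p = 0.111 and 0.0954). Tspan6 lost its call without positive replicate 2 and Sdc1 without positive replicate 1 (edgeR adjusted p = 0.127 and 0.194).

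Above the same 5 CPM, the largest fall was that of Ifi209, an interferon-inducible gene whose member lay within 1 kb of its start. It was at 35.5 and 37.6 CPM in positive, against 102 and 98.1 CPM in negative libraries, a log2 fold change of −1.45 ± 0.07 (SE, n = 2 each, edgeR adjusted p = 5.20e-11). Acvrl1, the gene of a type I receptor for TGF-beta family ligands, fell to 23.0 and 21.2 CPM in positive, against 47.6 and 48.9 CPM in negative libraries (edgeR adjusted p = 2.33e-08). Setbp1 held 5 members among 21 regions and fell to 10.4 and 13.2 CPM in positive, against 27.2 and 25.5 CPM in negative libraries (edgeR adjusted p = 1.87e-06). Tjp1, Edaradd, Dapk2, Plekha6, Plxdc1, Sipa1l2 and Insrr fell by 1.12 to 1.32 on the log2 scale. In each of these 20 genes the 2 positive libraries lay on the same side of both negative libraries.

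**Figure D5:**
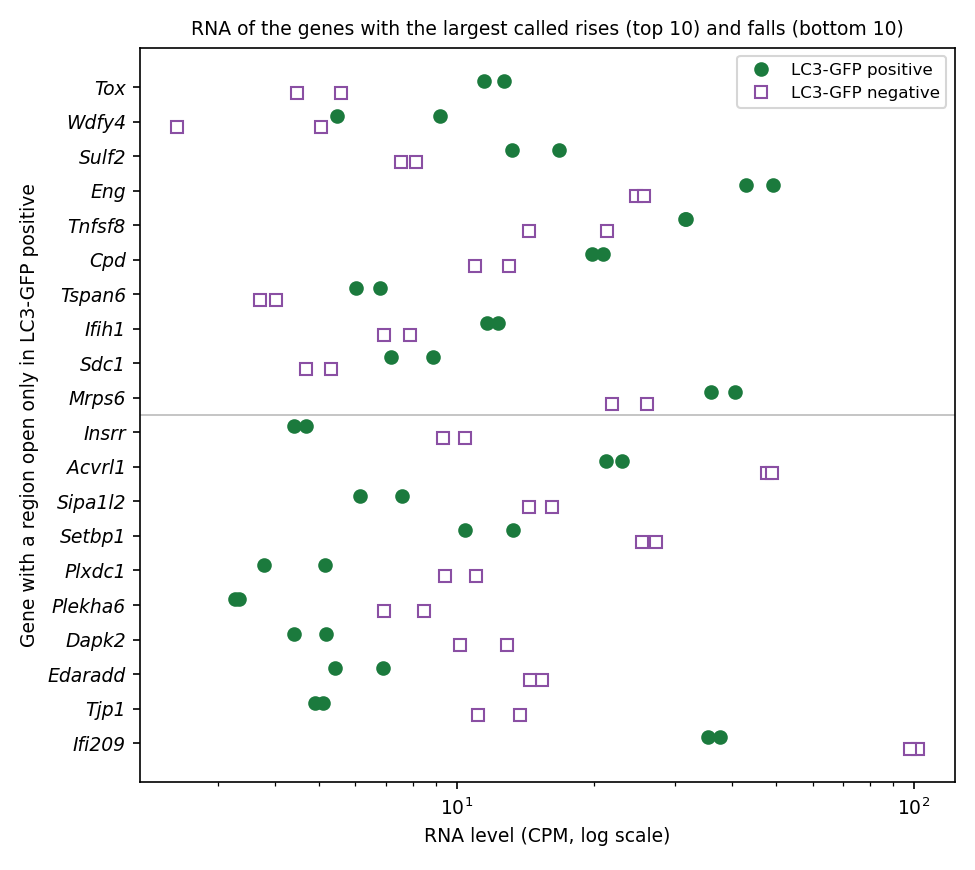
RNA level (x axis, CPM on a log scale) of the 20 genes with a region open only in LC3-GFP positive, a mean of at least 5 CPM and the largest called changes. Circles are the 2 positive and squares the 2 negative libraries. Rises (upper 10) run to Tox, at 12.7 and 11.5 against 5.57 and 4.48 CPM, and falls (lower 10) to Ifi209, at 35.5 and 37.6 against 102 and 98.1 CPM.

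Of the genes with most members, Lpp fell (log2 fold change −0.32, edgeR adjusted p = 0.00371) and Baz2b, a bromodomain protein gene, rose (0.33, edgeR adjusted p = 0.0301). The call of Lpp was lost without positive replicate 2 (edgeR adjusted p = 0.0936). That of Baz2b was lost with DESeq2 (adjusted p = 0.173) and without positive replicate 1, positive replicate 2 or negative replicate 2 (edgeR adjusted p = 0.0998, 0.143 and 0.144). Itpr2, a calcium channel gene, was at 67.1 and 61.7 CPM in positive, against 64.6 and 64.7 CPM in negative libraries, and Prkce at 11.6 and 11.4 CPM, against 11.1 and 10.1 CPM, and neither passed the test. Hdac9, Tenm4 and Arhgap24 were not tested in RNA.

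Among T cell genes, members were numerous at memory and stemness genes, most of which did not change in RNA. Of the 25 genes on that list 12 held 25 members, 8.09% of their 309 regions and so close to the 8.03% of all regions. Foxp1, a factor that keeps T cells quiescent, held 7, Ets1 held 4 and Bach2 held 3. Of the 12, only Tcf7, the gene of the stem-like memory factor TCF-1, passed the test. It was at 42.8 and 42.8 CPM in positive, against 28.2 and 33.0 CPM in negative libraries, a log2 fold change of 0.49 ± 0.09 (SE, n = 2 each, edgeR adjusted p = 4.38e-04). Foxp1 was at 171 and 164 CPM in positive, against 176 and 176 CPM in negative libraries, and Ets1 at 609 and 625 CPM, against 568 and 609 CPM. In this list 4 of the 12 were called higher without negative replicate 2, and 2 lower without negative replicate 1. Bach2 was at 65.2 and 67.6 CPM in positive, against 70.2 and 80.8 CPM in negative libraries (edgeR adjusted p = 0.0630, and 8.92e-04 without negative replicate 1). Ets1 passed the test without negative replicate 2 (edgeR adjusted p = 0.00649) and with library size alone (edgeR adjusted p = 0.0409). One of the 4 Ets1 members, chr9:32726074-32726705, had a peak in 7 tumour libraries, all but negative replicate 2.

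Inhibitory receptor and trafficking genes held members at called genes that moved both ways. Members made up 5 of 121 regions (4.13%) on the inhibitory receptor list and 10 of 109 (9.17%) on the trafficking list. Of all regions they made up 8.03%. Of 5 tested inhibitory receptor genes with a member 2 rose and 2 fell. Of 7 tested trafficking genes with a member 1 rose and 1 fell, against 11.3% and 13.6% of all genes. Only called genes are named here. Havcr2, the gene of TIM-3, had 1 member and fell to 32.9 and 32.5 CPM in positive, against 74.0 and 63.1 CPM in negative libraries (edgeR adjusted p = 3.19e-08). Btla, an inhibitory receptor gene, rose to 42.0 and 40.4 CPM in positive, against 24.6 and 31.4 CPM in negative libraries (edgeR adjusted p = 3.92e-04). Ccr2, a receptor gene for inflammatory chemokines, fell to 41.5 and 41.4 CPM in positive, against 93.3 and 82.4 CPM in negative libraries (edgeR adjusted p = 4.63e-09). Ccr4 rose to 88.0 and 83.0 CPM in positive, against 60.3 and 66.8 CPM in negative libraries (edgeR adjusted p = 1.14e-04).

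Autophagy, the process that the reporter marks, was represented by 9 of 40 genes and 14 members. The 14 were 7.69% of 182 regions, close to the 8.03% of all regions. Atg5, whose product takes part in joining LC3 to membranes, held 4 of 12 regions, and Uvrag and the autophagy receptor gene Tax1bp1 held 2 each. None of the 4 Atg5 members had a tumour peak. None of the 9 genes passed edgeR's test or DESeq2 at an adjusted p below 0.05, and 0 of 9 did at an unadjusted edgeR p below 0.05. Without negative replicate 2, 2 of the 9 were called higher, namely Fundc1 and Gabarapl2. On the whole list 0 of 39 genes rose and 8 fell, against 11.3% and 13.6% of all genes. Atg5 was at 45.2 and 41.2 CPM in positive, against 39.5 and 38.0 CPM in negative libraries (edgeR adjusted p = 0.159, and 0.0467 with library size alone). Uvrag was at 49.1 and 49.3 CPM, against 47.8 and 48.7 CPM in negative libraries, and Tax1bp1 at 218 and 219 CPM, against 222 and 202 CPM.

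PERK, named in the study's title, is a kinase of the endoplasmic reticulum that slows translation by phosphorylating eIF2-alpha. Of the 26 genes of PERK and the integrated stress response 4 held a member each, with 0 negative-only regions among 47. The 4 were 8.51% of these regions, close to the 8.03% of all regions, and 3.32% of all regions were negative-only. In RNA, 2 of the 26 genes rose and 14 fell, against 11.3% and 13.6% of all genes. Eif2s1, which encodes eIF2-alpha itself, was at 198 and 198 CPM in positive, against 170 and 175 CPM in negative libraries, and rose (edgeR adjusted p = 0.00454). That call was lost without either positive replicate (edgeR adjusted p = 0.0591 and 0.0559). Nupr1, a stress-induced cofactor gene, fell to 2.45 and 2.76 CPM in positive, against 5.63 and 3.92 CPM in negative libraries (edgeR adjusted p = 0.0200). Its call was lost with DESeq2 (adjusted p = 0.118), without positive replicate 1 (edgeR adjusted p = 0.116) and without negative replicate 1 (edgeR adjusted p = 0.210). Eif2ak1, the heme-regulated eIF2-alpha kinase gene, was at 54.9 and 57.7 CPM, against 56.0 and 56.8 CPM in negative libraries, and Ppp1r15b, whose product helps reverse that phosphorylation, at 326 and 318 CPM, against 309 and 304 CPM. Of these 4 members, 3 had a peak in tumour negative replicate 2 and 0 in the other tumour libraries.

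Hypoxia and glycolysis genes with a member were lower in RNA. Of 7 such genes 5 fell and 0 rose, while on the whole list 21 of 32 fell and 0 rose, against 13.6% of all genes that fell. The same numbers of the 7 came from DESeq2, from scaling by library size without TMM and at an unadjusted edgeR p below 0.05. They were the glucose transporter genes Slc2a1 and Slc2a3, the oxygen sensor genes Egln1 and Egln3, and Vegfa. Slc2a3 was at 548 and 533 CPM in positive, against 832 and 823 CPM in negative libraries, a log2 fold change of −0.61 ± 0.04 (SE, n = 2 each, edgeR adjusted p = 1.25e-08). Egln3 was at 313 and 319 CPM in positive, against 449 and 428 CPM in negative libraries (edgeR adjusted p = 5.10e-07). Pfkfb3, a glycolysis activator gene, held 3 members, all with a peak in tumour negative replicate 2, and was at 130 and 128 CPM in positive, against 137 and 139 CPM in negative libraries, without passing the test.

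Signalling genes were often lower as well, on their whole lists and where they held a member. Over all genes tested 13.6% were lower and 11.3% higher. Members were 9 of 257 regions (3.50%) on the T cell receptor signalling list, where 13 (5.06%) were negative-only. They were 20 of 273 (7.33%) on the PI3K, mTOR and phosphodiesterase list. Of all regions 8.03% were members and 3.32% negative-only. Of 7 T cell receptor signalling genes with a member 5 fell and 0 rose (4 and 0 with DESeq2, 5 and 0 at an unadjusted edgeR p below 0.05, 3 and 0 without either positive replicate), against 17 and 2 of 29 on the whole list. Among them was Skap1 (edgeR adjusted p = 1.66e-04). Of 11 PI3K, mTOR and phosphodiesterase genes with a member 7 fell and 1 rose (5 and 0 with DESeq2), against 13 and 1 of 25 on the whole list. Pik3ap1, an adaptor gene of PI3K, fell to 36.8 and 31.2 CPM in positive, against 68.3 and 61.0 CPM in negative libraries (edgeR adjusted p = 3.55e-07). Inpp5d, the gene of the phosphatase SHIP-1, fell to 129 and 136 CPM, against 176 and 163 CPM in negative libraries (edgeR adjusted p = 9.72e-05). Pde4d, a cyclic AMP phosphodiesterase gene, fell to 51.4 and 51.1 CPM, against 67.4 and 68.6 CPM in negative libraries (edgeR adjusted p = 1.64e-04). Klrb1c, a natural killer receptor gene with 1 member, fell to 1.56 and 2.95 CPM, against 5.76 and 7.69 CPM in negative libraries (edgeR adjusted p = 3.60e-04).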

How the data were processed

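ATAC-seq was measured in 4 in vitro and 8 tumour libraries and RNA in 4 libraries, grouped by the sorted population in the labels. Per the submitters' processing notes, the authors used Partek, cutadapt, BWA and MACS2 on mm10 for ATAC-seq and Partek, STAR and DESeq2 for RNA. The sources used here do not give versions, the counting method, strandedness or any Tn5 shift. Peaks carry 1 library's name each, so they were called per library. Per the file headers, the deposited peak values are the pileup signal, the fold enrichment ratio and −log10 of the p-value and q-value. These caller values served here as ranks or filters within 1 library alone. The deposited RNA table holds estimated counts, of which 22.5% to 23.8% per library were not whole, and these were rounded. CPM are counts scaled to TMM-adjusted library size.

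In the peak lists, coordinates are printed as deposited. Genes, gene starts and promoter windows came from RefSeq tables of GRCm38.p6, and 21887 protein-coding genes were placed. Where strand was unknown (all but 19857 of them) a gene was extended by 2 kb on both sides. RNA was tested with edgeR 4.0.16 (filterByExpr, TMM, glmQLFit and glmQLFTest, Benjamini-Hochberg over 12022 genes, threshold 0.05), checked on simulated data, with DESeq2 1.42.0 as an alternative. Intervals cover counting error only. Other alternatives were stricter peak thresholds, a 50% overlap, equal peak numbers, other gene assignments, no filter on low counts, library size alone, a replicate block and each library left out.

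Named were the 12 best-ranked members, those separating the tumour groups, the 8 genes with most members, the 10 largest called rises and falls at a mean of at least 5 CPM, and listed genes with a member; some that meet this rule are not reported here. The members and the 26 gene lists were chosen with earlier results of these data known.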

Additional observations from a re-analysis of the deposited data

Results flagged for a closer look

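In 4 of 8 combinations of a group and a measure, 1 of the 4 tumour libraries stood farther from the nearest other library than Dixon's 95% limit for 4 samples allows. Chance flags about 1 in 20 groups. Tumour negative replicate 2 had a peak at 33.6% of the positive-only regions, with a gap of 0.869 of the range of the negative libraries. Tumour positive replicate 1 had the fewest peaks, 27406, with a gap of 0.907. It also had the lowest share of positive-only regions with a peak, 2.83%, and of regions in all 4 in vitro libraries with a peak, 58.3%, with gaps of 0.917 and 0.905.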

How the results depend on the processing

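The number of positive-only regions, 5911, was 4465 to 5862 under stricter −log10 q thresholds, a 50% overlap and equal peak numbers. With equal peak numbers the negative-only regions numbered 3824 in place of 2448. Leaving out 1 in vitro library gave 7068 to 13304 regions, the most without positive replicate 2, and 9481 without negative replicate 1, and 3144 to 6530 negative-only regions, the most without negative replicate 2 and 5468 without positive replicate 1. The tumour difference of −7.23 percentage points was −2.66 with equal peak numbers, where negative replicate 2 had peaks at 14.01% of the members and the other 7 libraries at 2.83% to 3.42%. It ran from −9.95 to −0.76 with 1 tumour library left out, with −0.76 without negative replicate 2, and was negative each time. With equal peak numbers the groups overlapped once negative replicate 2 was set aside. The positive libraries then stood at 2.83% to 3.42% and the remaining negative ones at 2.96% to 3.37%.

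Of RNA, 3000 genes were called. DESeq2 called 1688, of which 128 of the genes with a member were higher and 185 lower, against 228 and 281. Leaving out 1 RNA library gave 1722 to 3451 calls (1722 without positive replicate 1 and 1806 without positive replicate 2), with 116 to 270 genes with a member higher and 191 to 311 lower. Library size alone gave 374 higher, and members within 1 kb of a gene start gave 7 higher and 13 lower, where fewer genes were tested. With members that had no peak in tumour negative replicate 2, chosen after seeing the data, 159 were higher and 210 lower. RNA libraries share only a replicate number (the deviations of positive and negative replicate 1 from their group means had a correlation of 0.0646 over 12022 genes). The replicate block called 3568 genes, 284 of those with a member higher and 323 lower, and moved Bach2 past the threshold (edgeR adjusted p = 0.0201).

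Of the log2 fold changes of named genes, 451 of the values under the alternatives kept direction and side of the threshold, 21 lost the call, 6 gained it and 9 changed sign. Each sign change was at a gene that did not pass the test. With library size alone, Itpr2 was at 0.0591 and Eif2ak1 at 0.0592, and with DESeq2 Eif2ak1 was at 0.000587. With 1 library left out, Itpr2 ran from −0.0653 to 0.0569, Tnfrsf13b from −0.14 to 0.56, Tax1bp1 from −0.0225 to 0.112 and Eif2ak1 from −0.0361 to 0.0339. The cause of these changes was not tested. Precision is limited by 2 libraries per group for RNA and in vitro ATAC-seq, and by unknown read depth for peaks.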
